A study of Mus musculus with 4 samples.

Results

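Dividing cells that carried transcripts of the B cell receptor subunits Cd79a and Cd79b, but next to none of the surrogate light chain, were selected from single cells of mouse bone marrow. A cell was taken when it had at least 2 unique molecular identifiers (UMIs, each marking 1 captured transcript) of Cd79a and Cd79b together and at least 2 of the cell cycle genes Mki67, Top2a, Pclaf and Birc5 together. It also had at most 1 UMI of the surrogate light chain genes Vpreb1 and Igll1, and 0 UMIs of Siglech and of Ighd. This gate held 2841 of 39167 cells. It is labelled as cycling pre-B cells, and the 10 genes of the gate describe how its cells were chosen and are not findings.

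The cells were bone marrow mononuclear cells of C57BL/6 mice, with 2 wild-type (WT) and 2 TLR9-/- (KO) mice and 1 library per mouse. The paper's methods for the single-cell experiment do not give their isolation. For other assays the paper describes flushing of femurs and tibias and isolation on Ficoll. For osteoclast assays this followed overnight culture with the cytokine M-CSF, which removed adherent cells. TLR9-/- mice lack the receptor from the germline, in every cell, so that a difference cannot be assigned to B lineage cells themselves. Both genotypes were untreated on normal chow and were bred in separate cages, so that genotype and cage cannot be told apart, and the labels give neither the age nor the sex of these 4 mice. By the study's methods the libraries came from separate experiments with a mouse of each genotype in each, and the labels do not say which libraries shared one. Transcripts were read from their 5′ end. Values of single libraries are given below for TLR9-/- mice 1 and 2 and then for WT mice 1 and 2. In this order the libraries held 10781, 8918, 10573 and 8895 cells and 50204578, 63958243, 31210188 and 41384657 UMIs. Pairs of libraries shared between 118 and 203 cell barcodes, of which at most 5 were gated in both.

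In the bone marrow, a B cell precursor that has rearranged its immunoglobulin heavy chain pairs this chain with the surrogate light chain, formed by Vpreb1 and Igll1, into a pre-B cell receptor. Signals of this receptor and of interleukin 7 drive a burst of divisions, during which the surrogate light chain genes are switched off. The cells then stop dividing, express Rag1 and Rag2 again, which encode the recombinase, and rearrange a light chain gene.

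The gate held 705, 380, 1075 and 681 cells. Not all of them resembled B cell precursors. Each cell was assigned to the marker list with the most UMIs, and Vpreb3, Ebf1 and Myl4, 3 genes of B cell precursors, led in 1784 of the 2841 cells. These cells, called B lineage-led below, made up 54.3%, 31.8%, 76.5% and 67.3% of the gated cells. In the other 1057 cells other lists led or there was a tie. Stem and progenitor genes (Cd34, Kit, Mpo and Elane) led in 323, neutrophil genes in 315, monocyte genes in 186 and erythroid genes in 182. Stem and progenitor genes led in 15.5% and 39.5% of the gated cells of the TLR9-/- mice against 2.05% and 6.17% of those of the WT mice. Erythroid genes led in 3.55% and 3.16% against 9.49% and 6.31%.

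**Figure D1:**
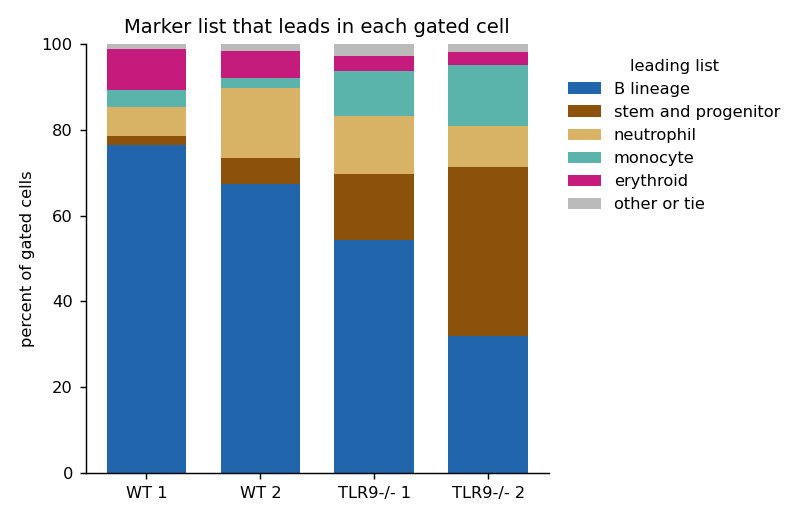
Percent of the gated cells of each library (vertical axis) in which the UMIs of a marker list exceeded those of every other list. The B lineage list led in 76.5% and 67.3% of the gated cells of the WT mice and in 54.3% and 31.8% of those of the TLR9-/- mice, where stem and progenitor genes led more often.

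The cells in which another list led were deeper, and so they weighed more in sums. Their median UMI count was 11056, 21854, 4678 and 11004, against 2797, 4272, 2262 and 3229 in the B lineage-led cells. They held 76.1%, 91.6%, 43.3% and 64.0% of the UMIs of the gate. A search for doublets marked 229 of the 1057 cells, and 41 of the 1784 B lineage-led cells. The limit of the gate bore on this makeup. At a Cd79a and Cd79b count of 2, just inside the gate, 19.3% of 456 cells were B lineage-led (12.3%, 0.775%, 51.8% and 17.0% by library). With a higher count it was 71.1% of 2385 cells (66.9%, 47.8%, 79.3% and 71.5%). Just outside, with a count of 1, it was 5.96% of 1242 cells (3.81%, 0.545%, 22.3% and 2.44%). For the cell cycle genes, 52.5% of 160 cells just inside were B lineage-led, as were 64.4% of 495 cells just outside. For the surrogate light chain, the share was 68.1% of 364 cells just inside and 76.6% of 167 just outside. By library it was 56.0%, 38.6%, 77.3% and 83.0% inside and 73.1%, 81.8% (of 11 cells), 74.6% and 82.9% outside. It was thus lower inside in the TLR9-/- libraries only. The B lineage-led cells were defined after the makeup of the gate had been seen, and their levels of Vpreb3, Ebf1 and Myl4, as well as their low levels of the other lists, follow from this definition.

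The transcripts of other cell types left in the B lineage-led cells are given as a description, since the definition of these cells kept them low. The neutrophil list had 25417, 20786, 21438 and 69717 CPM (UMIs per 1000000 UMIs of the same cells) in the whole gate, and 264, 287, 197 and 841 in the B lineage-led cells. S100a8 and S100a9, which encode the abundant calprotectin proteins of neutrophils, held most of the remainder. The stem and progenitor list had 8844, 18626, 2959 and 9588 CPM in the whole gate and 49.3, 46.4, 34.4 and 78.2 in the B lineage-led cells. Siglech and Ccr9 of plasmacytoid dendritic cells were at 0 in the B lineage-led cells of every library, and Siglech was at 0 by the gate. Vpreb3, which encodes an assembly factor of the pre-B cell receptor, had 3206, 3218, 3300 and 3541 CPM. Myl4, a myosin light chain gene, had 922, 986, 943 and 925. Ebf1, a transcription factor that commits cells to the B lineage, had 2408, 1633, 2535 and 1592. Among the gate genes, Pclaf, which encodes a PCNA-binding protein of replication forks, had 2611, 2271, 2855 and 2280 CPM, and Cd79b had 1006, 1039, 1058 and 1040. The 4 libraries were close in Vpreb3, Myl4 and Cd79b, and Ebf1 and Pclaf were higher in the libraries numbered 1 of both genotypes.

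Tlr9, the targeted gene, checked the labels only weakly here. Over all cells it had 41, 48, 120 and 97 UMIs, or 0.817, 0.750, 3.84 and 2.34 CPM. In the gated cells it had 2, 2, 9 and 3 UMIs and in the B lineage-led cells 1, 0, 5 and 1. A count of 0 among the 560884 UMIs of TLR9-/- mouse 2 allows up to 5.35 CPM, and so a difference in Tlr9 was not detectable in these cells at this depth. The TLR9-/- libraries were not free of Tlr9 reads, and where the disrupted part of the gene lies relative to the reads was not examined.

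The share of gated cells was lower in both TLR9-/- mice than in both WT mice. They made up 6.54% and 4.26% of all cells in TLR9-/- mice and 10.2% and 7.66% in WT mice. The B lineage-led cells made up 3.55%, 1.36%, 7.77% and 5.15%, with Wilson 95% intervals of 3.22% to 3.92%, 1.14% to 1.62%, 7.28% to 8.30% and 4.71% to 5.63%, which cover counting error only. Both TLR9-/- mice were below both WT mice. The TLR9-/- mean was 2.45% ± 1.55 and the WT mean 6.46% ± 1.86 (SD over 2 mice per genotype), and the exact two-sided permutation test gave p = 0.33, the smallest value it can give with 2 mice against 2. Since a deeper cell shows more UMIs of the gate genes, every cell was also thinned to 1000 UMIs and shallower cells were left out. This kept 8884, 8452, 7860 and 7739 cells, and shares after thinning are of the cells kept. The B lineage-led share was then 3.82%, 1.57%, 9.11% and 5.65%. A lower share of these cells and a higher number of other marrow cells cannot be told apart. Relative to B lineage-led cells with at least 2 UMIs of Cd79a and Cd79b, the share was 13.6%, 6.37%, 18.9% and 14.2%, so that both TLR9-/- mice were again below both WT mice, the nearest pair by a small margin (exact p = 0.33). After thinning the groups overlapped. This share was then 24.0%, 8.66%, 32.6% and 18.7% at 1000 UMIs per cell and 45.8%, 22.6%, 50.8% and 41.9% at 2000, so that TLR9-/- mouse 1 lay above WT mouse 2 at both depths (exact p = 0.67). For the whole gate relative to all such cells the groups overlapped, with 19.2%, 14.02%, 20.1% and 14.7% (exact p = 0.67).

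**Figure D2:**
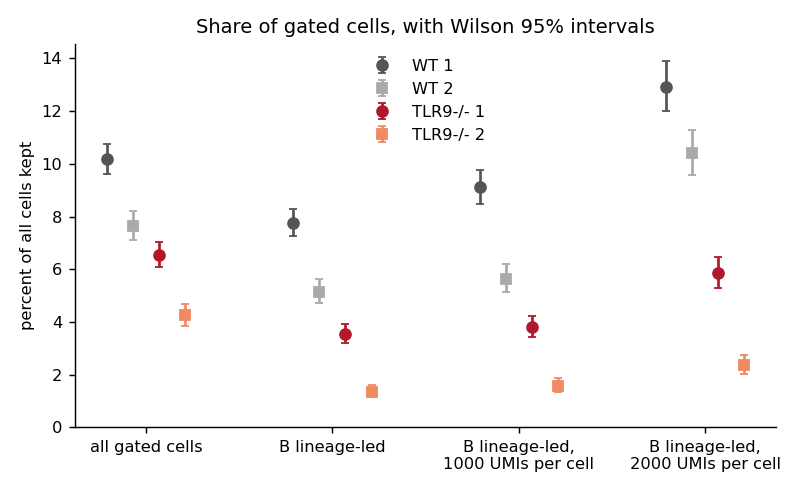
Percent of all cells of each library (vertical axis) that were gated, with 95% Wilson intervals, for the whole gate, for the B lineage-led cells and for these after every cell was thinned to 1000 or 2000 UMIs. Thinned shares are of the cells with at least that many UMIs. Both TLR9-/- mice sit below both WT mice in every set, at 3.55% and 1.36% against 7.77% and 5.15% in the B lineage-led cells.

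The B lineage-led cells were next compared with 3 other gates, each reduced to B lineage-led cells as well. Resting cells had at least 2 UMIs of Cd79a and Cd79b, at most 1 of the surrogate light chain, and 0 of the 4 cell cycle genes and of Ms4a1, which encodes the surface protein CD20. Resting Ms4a1 positive cells differed from these by having an Ms4a1 UMI. Surrogate light chain positive cells had at least 2 UMIs of Vpreb1 and Igll1 and any cycle state. These comparisons are descriptions without a test, because the gates were cut on the genes of the same cells. Ratios are those between CPM values, with 1 added on the log2 scale, and the direction was required in 4 of 4 libraries.

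Against resting cells, genes of DNA replication and mitosis were higher nearly throughout. Of 54 genes of DNA replication with at least 10 CPM, 53 were higher in every library, with a median log2 ratio of 3.39. Of 79 genes of G2 and mitosis 78 were higher and 1 was lower, with a median of 4.90. Among all 6981 genes at this level 1920 were higher and 2470 lower, with a median of -0.11. Cells cut on cycle genes had to differ in such genes. The genes with the largest ratios included Rrm2, a subunit of ribonucleotide reductase, with 503, 610, 531 and 368 CPM in the dividing cells and 3.43, 3.40, 4.07 and 5.08 in resting cells. Ube2c, the ubiquitin-conjugating enzyme of the anaphase-promoting complex, had 1457, 1507, 1178 and 1210 against 17.1, 8.50, 19.6 and 31.5. Neil3, a DNA glycosylase, Pbk, a mitotic kinase, and Ncapg, a condensin subunit, were also among the first 4 by median ratio. The replication-dependent histones, whose transcripts accumulate in S phase, were 6.60, 8.85, 6.65 and 4.77 times as high in sum.

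Genes of the B cell receptor and of later stages were lower in CPM in the dividing than in the resting cells. CPM is relative to depth, and the dividing cells were deeper. Their median was 2797, 4272, 2262 and 3229 UMIs against 918, 1415, 859 and 1207 in resting cells. Transcripts per cell were not compared. On the list of surrogate light chain and receptor chains, 7 genes outside the gate had at least 10 CPM, all lower in 4 of 4 libraries. Of 23 genes of B cell receptor signalling 17 were lower and 2 higher, and of 31 B lineage transcription factors 27 were lower and 2 higher. Among all 6981 genes at this level 2470 were lower and 1920 higher. Vpreb3 (44.7% of the chain list) and Ebf1 (28.2% of the factor list) helped define the B lineage-led cells of both gates. Ighm, the mu heavy chain, had 1548, 1917, 1795 and 2564 CPM against 3317, 3954, 3423 and 5107 in resting cells. Rag1 had 30.9, 37.4, 48.3 and 57.3 against 263, 331, 293 and 362, a median log2 ratio of -2.84. The ratio of Rag2, its partner, was -0.04, 0.18, -0.23 and -0.15, with no common direction. Ly6d, a surface protein of B cell precursors, had a median log2 ratio of -2.39. Ccnd3, the cyclin D that pre-B cells depend on for division, was higher by 0.95, 1.36, 0.61 and 1.14. The genes with the lowest median ratios included Kdm5b, a histone demethylase, with 5.01, 3.57, 6.69 and 8.62 CPM against 94.8, 124, 63.6 and 79.3.

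Against the surrogate light chain positive cells, light chain and MHC class II genes were higher and growth genes lower. Igkc, the kappa constant region, had log2 ratios of 2.47, 2.43, 2.38 and 2.37, and the lambda constant genes Iglc1, Iglc2 and Iglc3 had medians of 3.91, 4.23 and 3.66. The lambda constant genes resemble each other in sequence, some more closely than others, and those that are near copies are uncertain as single genes. The MHC class II list was 8.07, 2.85, 4.64 and 4.42 times as high in sum. Cd74, the invariant chain, held 52.99% of that list. Myc, a driver of growth, was lower by a median of -3.12 and Ccnd2, the other cyclin D of these cells, by -1.99. The list of ribosome biogenesis and glycolysis stood at 0.48, 0.47, 0.53 and 0.51 times the level of those cells. G2 and mitosis genes were 1.51, 1.58, 1.57 and 1.61 times as high in sum, where the other gate was not cut on cell cycle genes. Il7r, the interleukin 7 receptor, was higher by 0.73, 1.09, 0.85 and 0.72. Vpreb2 had the lowest ratio, but it is a near copy of the gate gene Vpreb1. Dntt, which adds untemplated bases in heavy chain joining, came next with a median of -6.27, and its 27 UMIs in TLR9-/- mouse 2 came from 1 cell.

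Against resting Ms4a1 positive cells, Il7r was higher by a median log2 ratio of 3.06, Rag2 by 3.89 and Myl4 by 2.30. Cd74 was lower by -3.81, and Fcer2a and Cr2, which encode the receptors CD23 and CD21 of mature B cells, by -5.49 and -4.33. In these genes all 4 libraries went the same way.

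**Figure D3:**
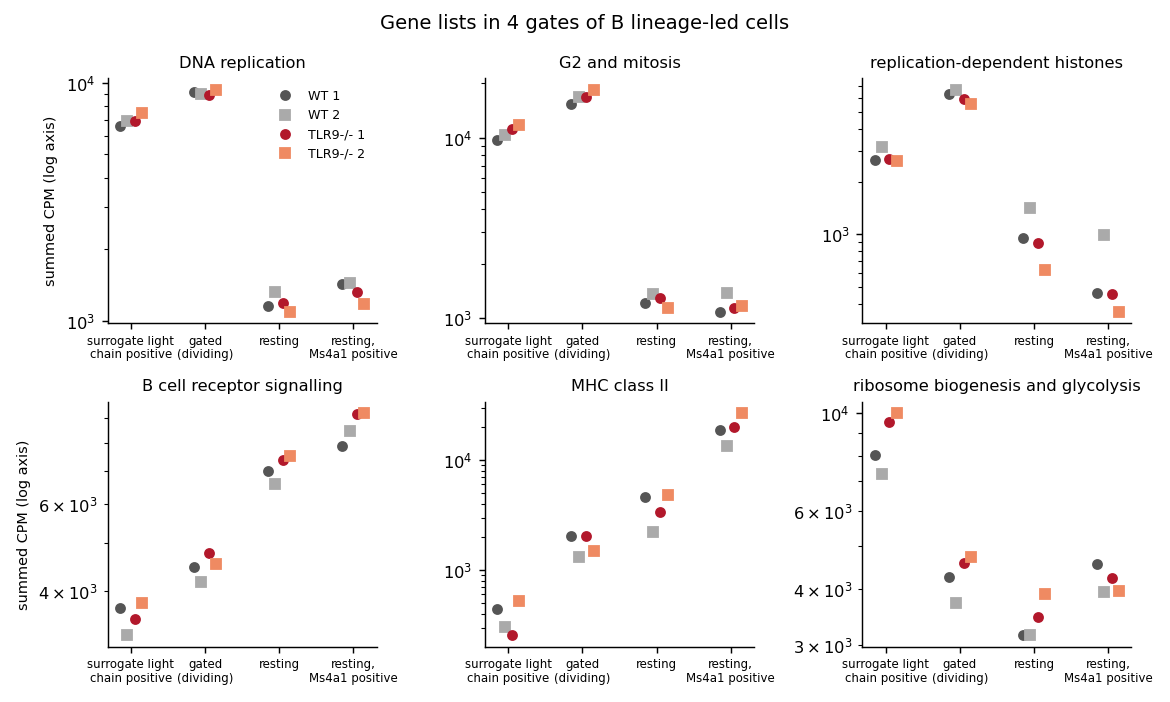
Summed CPM (vertical axes, log scale) of 6 gene lists in B lineage-led cells of 4 gates, 1 point per library. The dividing gated cells are highest in DNA replication, G2 and mitosis and histones, and lie between the surrogate light chain positive and the resting cells in B cell receptor signalling and MHC class II, in each of the 4 libraries.

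Light chain transcripts were common among the dividing cells. At 1000 UMIs per cell, 75.5%, 77.3%, 70.1% and 73.0% of the B lineage-led cells had an Igkc UMI. Neutrophil cells without a Cd79 UMI were set beside them. In these the neutrophil list led, and Camp, Ngp and Ltf together had at least 10 UMIs after thinning. Such cells should lack Igkc, and 1.78%, 0.277%, 1.37% and 0.707% of them had an Igkc UMI. Their median depths were 4403, 4200, 2822.5 and 4269.5 UMIs before thinning. A transcript of the constant region does not show that a light chain was joined, since the germline locus is also transcribed. An Il7r UMI was present in 27.7%, 32.8%, 34.7% and 27.5%, a Rag1 UMI in 3.47%, 4.20%, 5.63% and 5.93% and an Ms4a1 UMI in 6.13%, 0.840%, 6.13% and 5.27%. At least 3 UMIs of G2 and mitosis genes were present in 94.9%, 92.4%, 92.9% and 93.2% of the cells, which were chosen on cycle genes, and in 42.5%, 25.9%, 32.9% and 39.9% of the neutrophil cells. At least 3 of DNA replication genes were present in 88.0%, 84.9%, 89.2% and 81.8%, against 28.0%, 17.1%, 20.1% and 25.9%. The neutrophil cells were not selected against division, so that they are not a background for cycle genes. Between genotypes, the B lineage-led cells did not overlap for Igkc and Rag1 and overlapped for the others. The exact permutation test on such shares cannot give a p below 0.33 with 2 mice against 2.

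Promoters are shown for genes of G2 and mitosis, because these moved together and many are known to be driven through a short element, the cell cycle genes homology region, with the letters TTTGAA. These letters were searched on both strands from 250 bases before to 50 bases after the RefSeq start, and 42 of 64 matched genes (65.6%) held them, against 20.2% of 27025 genes. For the letters TTTCCCGC, a form of the E2F site, it was 7 of 45 matched genes of DNA replication (15.6%) against 1.24%. A match is not a site of binding. The 4 stretches below lie upstream of the RefSeq start and outside annotated exons. They were chosen by the highest mean CPM in the B lineage-led cells among genes that met this, with gate genes and a single chromosome passed over. The matches begin 198, 167, 145 and 19 bases before the RefSeq start, in the order below. Stretches are given 5′ to 3′ on the strand of the gene (RefSeq, GRCm38.p6), with the match in capitals as TTTGAA or its reverse complement TTCAAA.
Tubb4b, a beta tubulin, chr2:25224835-25224952, minus strand: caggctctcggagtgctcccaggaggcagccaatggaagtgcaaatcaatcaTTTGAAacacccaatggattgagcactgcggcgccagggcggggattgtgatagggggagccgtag
Ccnb2, a mitotic cyclin, chr9:70421656-70421781, minus strand: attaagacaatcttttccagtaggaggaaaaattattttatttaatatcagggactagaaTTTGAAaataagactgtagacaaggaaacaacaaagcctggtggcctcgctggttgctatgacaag
Smc2, a condensin subunit, chr4:52439016-52439141, plus strand: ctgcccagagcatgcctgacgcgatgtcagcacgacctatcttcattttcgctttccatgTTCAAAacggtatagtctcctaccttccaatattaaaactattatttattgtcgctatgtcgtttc
Kif11, a spindle motor, chr19:37376303-37376381, plus strand: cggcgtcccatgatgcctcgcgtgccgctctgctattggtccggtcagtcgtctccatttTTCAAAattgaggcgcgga

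In these cells Tubb4b had 755, 902, 597 and 583 CPM, against 89.1, 100.3, 56.2 and 76.3 in resting cells. Ccnb2 had log2 ratios of 4.96, 5.60, 3.83 and 5.57. The ratios had the same direction in both genotypes.

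TLR9-/- and WT cells were then compared gene by gene. UMIs were summed per library and edgeR's two-sided quasi-likelihood test was used with Benjamini-Hochberg adjustment over all genes tested. In the B lineage-led cells, 27 of 7982 genes (0.338%) passed an adjusted p of 0.05, 14 higher (0.175%) and 13 lower (0.163%) in TLR9-/- mice. At an unadjusted p of 0.05 it was 5.79% of the genes. The genotypes did not overlap in any of the 27, which the choice by p favours. How many of all 7982 genes did not overlap was not counted, so that this adds no support. Of the 27, 23 could be tested with each library left out and kept their direction. Jhy, BC018473, Gm7125 and Gm9008 fell under the filter on low counts without either TLR9-/- mouse and were tested only without a WT mouse. A fit without 1 library leaves 1 mouse in a genotype and takes its spread from the other genotype alone. Its counts are therefore a description. Without TLR9-/- mouse 1, 13 of the 27 were still called, without TLR9-/- mouse 2 it was 17, without WT mouse 1 19 and without WT mouse 2 23, while the count over all genes was 76 without WT mouse 1 and 74 without WT mouse 2. In DESeq2, 12 of the 27 did not pass. These were Trim5, Cyp4f18, Ap4s1, Cndp2, Pbx4, Hist1h2bj, Nkg7, Tuba1a, Odc1, Gm7125, Gm9008 and 1 variable gene of the kappa light chain. With the library number as a block, 119 genes (1.49%) passed, all 27 among them.

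Genes with 0 UMIs in 1 genotype stood out. Gm6594, annotated as a processed pseudogene on chromosome 17 (GRCm38, 82539260 to 82539545), had 152 and 102 UMIs in TLR9-/- mice and 0 in both WT mice, which is at least 179-fold higher against 3 UMIs over the group (adjusted p = 6.7e-09). It was found in 116 and 65 of the 383 and 121 cells. Gm35082, a long noncoding RNA, had 32 and 29 against 0, at least 43.0-fold higher (adjusted p = 3.9e-05). Jhy, BC018473, Gm7125 and Gm9008 had between 4 and 13 UMIs in each TLR9-/- mouse and 0 in both WT mice. Trim12a, of the family of TRIM antiviral factors (chromosome 7, 104299894 to 104315466), went the other way, with 0 in both TLR9-/- mice against 76 and 65 UMIs, at least 22.2-fold lower (adjusted p = 3.9e-05). Its neighbour Trim5 had 1, 1, 36 and 26 UMIs (adjusted p = 0.0102). These near-identical copies can share reads, so that the split between them is uncertain, as it is for the pseudogene.

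**Figure D4:**
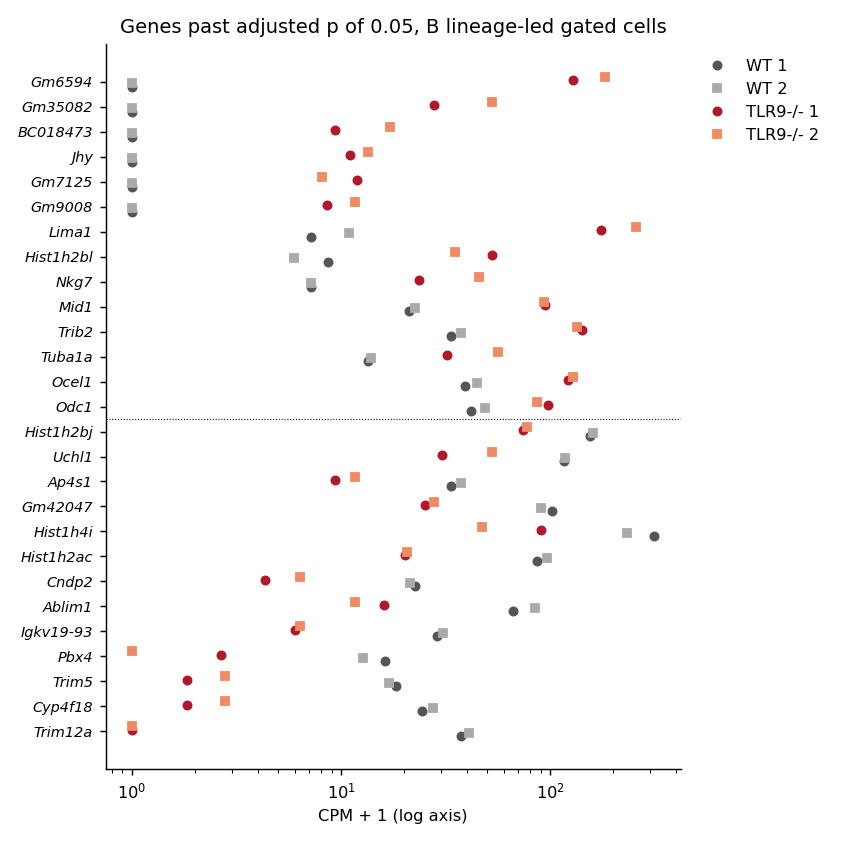
CPM plus 1 (horizontal axis, log scale) of the 27 genes past an adjusted p of 0.05 in the B lineage-led cells, 1 point per mouse, with the 14 genes higher in TLR9-/- mice above the dotted line and the 13 lower below it. The mice of the genotypes do not overlap in any row, which the choice by p favours. Gm6594 is at 0 in both WT mice while Trim12a is at 0 in both TLR9-/- mice.

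Of the other genes higher in TLR9-/- mice, Lima1 changed most. Lima1, which encodes an actin-binding LIM protein (chromosome 15, 99778470 to 99875456), had 174 and 255 CPM against 6.21 and 9.86, which is 4.70 ± 0.29 on the log2 scale (± standard error here and below, adjusted p = 1.9e-08). Trib2, a pseudokinase, had 140 and 134 against 32.5 and 36.3 (1.97 ± 0.21, adjusted p = 5.4e-05). Mid1, a microtubule-associated ubiquitin ligase on the X chromosome, rose by 2.13 ± 0.24, and Ocel1 by 1.56 ± 0.21. Tuba1a, an alpha tubulin, had 30.9 and 55.3 CPM against 12.4 and 12.9, and Odc1, the first enzyme of polyamine synthesis, had 96.0 and 85.6 against 40.6 and 47.4. Odc1 passed narrowly (adjusted p = 0.048). Nkg7, a granule gene of NK and cytotoxic T cells, had 27, 25, 13 and 10 UMIs, of which 14 and 15 in the TLR9-/- mice came from 1 cell each. The NK cell list had 23.4, 46.4, 6.21 and 6.16 CPM there, of which Nkg7 held nearly all, with Ncr1 and Klrb1c at 1 UMI or less in each library, and the T cell list had 8.35, 23.2, 3.82 and 1.23 CPM, with Cd3d at 3, 11, 3 and 1 UMIs and Cd8a at 0 in both TLR9-/- mice. In the whole gate Nkg7 had 317, 687, 124 and 394 CPM, and the stem and progenitor list had 8844, 18626, 2959 and 9588. In the B lineage-led cells that list had 49.3, 46.4, 34.4 and 78.2 CPM. The part of any of these cell types in the Nkg7 result was not tested.

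Among the genes lower in TLR9-/- mice, Ablim1, another actin-binding LIM protein, had 15.0 and 10.7 CPM against 65.5 and 83.8 (-2.47 ± 0.30 on the log2 scale, adjusted p = 0.00017). Uchl1, a ubiquitin hydrolase, had 29.2 and 51.7 against 116 and 116, a log2 change of -1.64 ± 0.25. Cyp4f18, a cytochrome P450 that acts on leukotrienes, had 1 UMI in each TLR9-/- mouse against 49 and 43. Gm42047, Ap4s1, a subunit of an adaptor complex of vesicle traffic, and Cndp2, a dipeptidase, were lower, by between -1.92 and -2.38, of which Ap4s1 and Cndp2 had an adjusted p of 0.40 and 0.82 in DESeq2. Pbx4, a homeobox gene, had 2, 0, 32 and 19 UMIs.

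Among the replication-dependent histone genes more were lower than higher. Of 50 tested genes of this group, 3 fell and 1 rose, where 0.338% of all genes passed, and at an unadjusted p of 0.05 in edgeR 12 were lower and 3 higher, where 5.79% of all genes were past it. The median log2 fold change was -0.29, against -0.01 over all genes. Hist1h4i, an H4 gene, had 89.4 and 46.4 CPM against 313 and 231 (-1.96 ± 0.28 on the log2 scale, adjusted p = 0.0043). Hist1h2ac, an H2A gene, fell by -2.24 and Hist1h2bj, an H2B gene, by -1.10 (adjusted p = 0.022 in edgeR but 0.091 in DESeq2), whereas Hist1h2bl, another H2B gene, had 51.8 and 33.9 against 7.65 and 4.93 (2.75 ± 0.36). The members with more UMIs did not pass, such as Hist1h2ae with 1186, 1123, 1258 and 1435 CPM. The group was added after values had been seen. Its genes are near copies of each other, and most transcripts lack a poly(A) tail, so that how many were captured can differ from how many were present.

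Few genes that mark division, signalling and identity passed this test, as few did among all 7982 genes tested (0.338%). For lists of this size a count of 0 is near that share. Of 79 genes of G2 and mitosis 0 passed, with a median log2 fold change of 0.06 and a range of -0.73 to 0.64. Of 54 genes of DNA replication 0 passed, with a median of -0.03. In edgeR at an unadjusted p of 0.05, 4 and 2 of the former and 1 and 3 of the latter were higher and lower. Over all genes 5.79% were past it in either direction. Pcna, the sliding clamp of DNA polymerase, had 425 and 378 CPM against 526 and 525 (-0.41, adjusted p = 0.83). Mitosis transcripts made up 65.5%, 66.4%, 62.5% and 65.1% of the transcripts of both lists, the TLR9-/- mice above the WT mice by a mean of 2.17 percentage points (exact p = 0.33). Of 32 B lineage transcription factors, 24 genes of B cell receptor signalling, 17 of interleukin 7 receptor and survival, 9 of MHC class II and 31 of the TLR9 pathway and NF-kB, 0 passed, with medians between -0.09 and 0.07. At an unadjusted p of 0.05, the factors had 1 higher and 1 lower and the TLR9 list 2 and 1. The interleukin 7 list had 3 and 2, and the other lists 0. Over all genes 0.338% passed the adjusted and 5.79% the unadjusted limit. Socs2, a feedback inhibitor of cytokine signalling, came nearest among named genes (1.30, adjusted p = 0.086, and 0.0015 with the library number as a block). Ccnd3 had 422 and 542 CPM against 315 and 350 (0.50, adjusted p = 0.72). Cxcr4, the receptor that holds precursors in the marrow, had 241 and 205 against 304 and 349 (adjusted p = 0.56, and 0.034 with the block). Unc93b1, the chaperone that carries TLR9 to endosomes, had 278 and 339 against 312 and 301 (-0.03, adjusted p = 0.99). Of 32 interferon-stimulated genes, only Trim5 passed, to which the block added Ly6a, with 10, 9, 96 and 24 UMIs and overlapping CPM (adjusted p = 0.88, and 0.0011 with the block). Ifi27l2a, which held 37.8% of the list, ranged from 1102 to 3422 CPM within the WT mice. Of 25 gene identifiers of ribosome biogenesis and glycolysis, that of Odc1 alone passed, where 0.338% of all genes did. In edgeR at an unadjusted p of 0.05, 4 were higher and 0 lower, against 5.79% of all genes. The median log2 fold change of the list was 0.21, and 21 of the 25 were above 0.

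**Figure D5:**
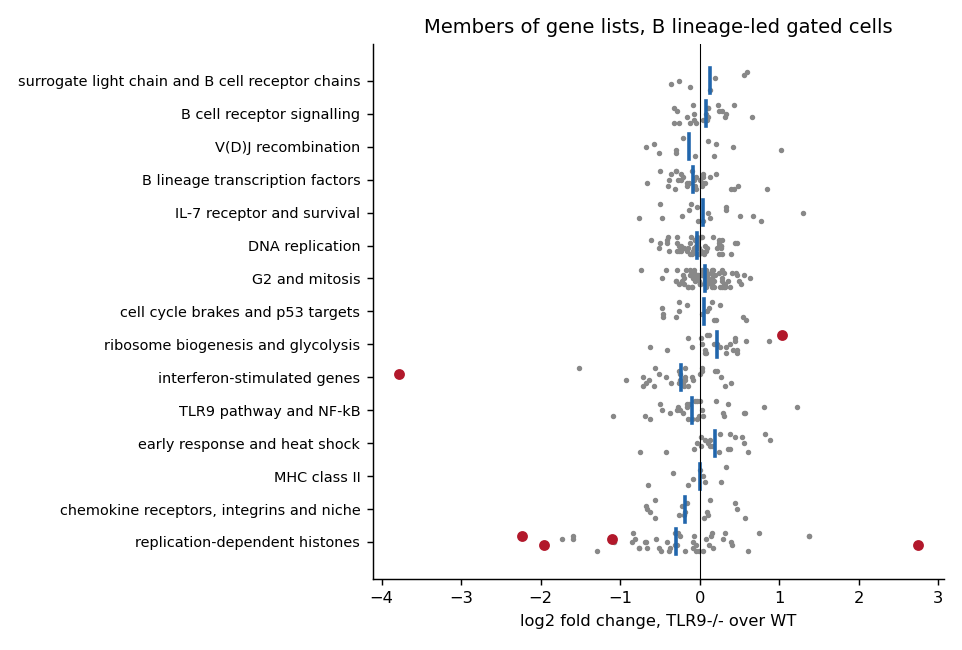
Log2 fold change of TLR9-/- over WT (horizontal axis) for the tested genes of 15 lists in the B lineage-led cells, 1 point per gene, with the list median as a blue bar and genes past an adjusted p of 0.05 in red. Most genes lie within 1 log2 unit of 0, and the list medians lie between -0.29 and 0.21.

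Several differences also appeared in neighbouring cells of the same mice, which are not independent of these. Lima1 had a log2 fold change of 4.71 in resting and of 3.67 in surrogate light chain positive B lineage-led cells. Trib2 had 1.84 and 2.98, and Mid1 1.82 and 2.11. Trim12a was at 0 in both TLR9-/- mice in both populations. Uchl1 had -0.72 (adjusted p = 0.22) in resting cells and -2.58 in surrogate light chain positive cells, and Odc1 had 0.45 and 0.44 (adjusted p = 0.92 and 0.34). In these populations 0.6% of 7328 genes and 1% of 9398 genes passed. The difference between populations was tested against resting cells, in B lineage-led cells of both, by the interaction of genotype and population. It passed for 13 of 8386 genes (0.155%), 5 higher (0.0596%) and 8 lower (0.0954%), and Hist1h4i was among them (-1.79). With the whole gate it passed for 102 of 10469 genes (0.974%).

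For the whole gate, 89 of 10577 genes (0.841%) passed the adjusted p of 0.05, 50 higher (0.473%) and 39 lower (0.369%) in TLR9-/- mice. Among them were genes of basophils, of progenitors and of red cells. Basophil genes led in 7, 3, 1 and 1 gated cells, and the shares led by progenitor and erythroid genes are given above. Mcpt8, a protease of basophils, had 87.1 and 84.0 CPM against 14.1 and 11.5 (2.75 ± 0.20 on the log2 scale, adjusted p = 0.024), and had 0, 0, 0 and 2 UMIs in the B lineage-led cells. Prss34, another basophil protease, rose by 2.71, and Cd34, a marker of progenitors, by 2.16. Hba-a1, an alpha globin, had 371 and 277 against 1907 and 1276 (-2.28 ± 0.27), and Rhag, Ermap, Aqp1 and Sptb of red cells fell as well. Of the 50 higher genes, 43 (86%) had a lower mean level in B lineage-led than in other gated cells, as had 22 of the 39 lower genes (56.4%), against 43.5% of all genes tested. The basophil list had 604, 399, 93.2 and 60.5 CPM in the whole gate and at most 8.01 in the B lineage-led cells. The erythroid list had 3713, 895, 17441 and 3192 against 177, 98.1, 313 and 177. The count changed strongly when a mouse was left out, as given under the processing, in fits that leave 1 mouse in a genotype. Without the doublet-marked cells 34 of the 89 remained. In the B lineage-led cells only 41 of the 89 could be tested, of which 15 passed and 4 had the opposite sign. Of 79 genes of G2 and mitosis, 0 passed in the whole gate, with a median of -0.51 where the B lineage-led cells had 0.06, and 34 were lower at an unadjusted p of 0.05, which 25.2% of all genes tested in the whole gate passed in either direction.

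Variable genes of the light chain showed how few cells stood behind some sums. The kappa variable genes had 1196, 466, 2749 and 823 UMIs in the B lineage-led cells. In TLR9-/- mouse 2, Igkv3-2 made up 64.2% of them, and 297 of its 299 UMIs came from 1 cell. In WT mouse 1, Igkv1-117 made up 10.3% as the leading gene, among 73 detected. Of 32 kappa variable genes tested there, Igkv19-93 fell (-2.48 ± 0.42, adjusted p = 0.0068 in edgeR and 0.16 in DESeq2) and 0 rose. Of 18 heavy chain variable genes 0 passed, where 0.338% of all genes did. Igkv19-93 had 6, 3, 58 and 48 UMIs, and in WT mouse 2 they came from 6 cells, with 28 from 1 of them. In the whole gate Igkv9-120 rose by 5.42 ± 0.64, with 2479 and 8954 UMIs in the TLR9-/- mice, of which 13 and 1 were in the B lineage-led cells. There the value was the opposite (-2.36, adjusted p = 0.30, 0.091 in DESeq2 and 1.1e-06 with the block). Variable genes resemble each other, and reads can be split between them.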

How the data were processed

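The deposited matrices hold UMI counts per gene and cell for each library, as called by Cell Ranger 3.0.1 from reads aligned by STAR to mm10 per the labels and file headers, before the authors' aggregation to equal depth. Seurat 2.3.4 is named in the submitters' processing notes. Cells with 200 to 10000 genes and at most 10% mitochondrial UMIs were kept (39167 of 40545). The methods print this limit as 0.10%, which was read as a fraction. Scrublet's procedure in scanpy 1.11.5 marked doublets, which were kept. In WT mouse 2 its threshold marked 1 cell, and the 633 highest scores at 0.8% per 1000 cells were taken instead.

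Counts were summed per library, filtered with filterByExpr, scaled by TMM and tested with edgeR 4.0.16 (glmQLFit, glmQLFTest) in R 4.3.3, 2 libraries against 2. The script was tested on simulated data. CPM values are deposited counts over the total of the cells summed, without TMM. The members and gene lists were chosen with earlier results of these data known. The genes named were the gate and marker genes, the 12 called genes with the largest fold change in each direction among those at 20 CPM or more with the same sign in both same-numbered pairs and with each library left out, up to 3 genes of each list with the smallest p, and the genes with the largest or smallest ratios between gates. This rule was applied to the B lineage-led cells too, after the makeup of the gate had been seen, and all 27 genes called there are named. Genes named for their role outside this rule, such as Unc93b1, Hist1h2ae, Ifi27l2a and Ly6a, were chosen after their values were seen. The histone, ribosomal protein and mitochondrial lists were added after values had been seen. Of 82 ribosomal protein and 13 mitochondrial genes tested in the B lineage-led cells, 0 passed, with 1 and 3 at an unadjusted p of 0.05. With the replicate block 2 of each passed. Over all genes it was 0.338%, 5.79% at the unadjusted p and 1.49% with the block. Alternatives were DESeq2 1.42.0, other scalings, filters, gates and depths, a replicate block and leaving out each library. Gene positions are from GENCODE vM21 (31011 of 31053 identifiers matched).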

Additional observations from a re-analysis of the deposited data

Results flagged for a closer look

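The genotype difference of 102 of 10469 genes (0.974%) in the whole gate differed from that in resting cells by the interaction of genotype and population in edgeR, and of 13 of 8386 genes (0.155%) when both populations were reduced to B lineage-led cells. These results were singled out because the difference itself passed the adjusted p of 0.05. In B lineage-led cells the log2 interaction was 1.45 for Gm42031, 10.33 for Igkv9-129, -5.42 for Igkv3-10, -2.80 for Igkv19-93, -3.33 for Igkv1-110 and -7.02 for Igkv6-17. It was 2.72 for Hist1h4d, -1.79 for Hist1h4i, -1.81 for Gm4316 and -0.93 for Colgalt1. Of the 13 genes, 6 were variable genes of immunoglobulin. In the gated B lineage-led cells, Igkv9-129 had 26 UMIs in TLR9-/- mouse 1 and 0 in the other 3 mice. Of these UMIs 24 came from 1 cell. In the resting B lineage-led cells it had 7, 0, 33 and 76 UMIs. The number also changed with 1 library left out, in fits that leave 1 mouse in a genotype.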

How the results depend on the processing

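In the B lineage-led cells 27 genes passed. DESeq2 called 16 (15 of the 27), no filter on low counts 73 and a replicate block 119 (all 27). With 1 library left out the count ranged from 21 to 76, and it was 76 without WT replicate 1 and 74 without WT replicate 2, while 13 to 23 of the 27 were still called. The 23 of them that could be tested with each library left out kept their direction, and the other 4 were tested only without a WT library. Over the alternatives for these genes, 262 results kept the call, 47 lost it and 15 were not tested there, being under the filter or left out with the immunoglobulin genes. The 89 genes of the whole gate became 599 with DESeq2, 1933 with no filter, 3312 with the block, 34 without marked doublets, 177 in cells with at least 2000 UMIs, 2 in cells without light chain UMIs and 27 in the B lineage-led cells. Leaving out 1 library gave 20 to 963, with 963 without KO replicate 1, 20 without WT replicate 1 and 33 without WT replicate 2. The cause of these shifts was not tested. Fits with 1 library left out leave 1 mouse in a genotype and take their spread from the other genotype alone. The study ran a mouse of each genotype in each experiment. The labels do not say that the library number marks the experiment, so the block was kept as an alternative, and deviations from the group means of same-numbered libraries correlated by 0.40 across genes in the whole gate and 0.22 in the B lineage-led cells. With the block in edgeR 8 histone genes fell and 1 rose. Cxcr4, Socs2, Hspa8, Iglc2, Zfp36l2 and Ly6a passed too (adjusted p from 0.0011 for Ly6a to 0.034). Of DNA replication and of G2 and mitosis 0 genes did, where 1.49% of all genes passed. For the interaction, 102 became 13 in the B lineage-led cells and 26 to 123 with 1 library left out (26 without KO replicate 2, 35 without WT replicate 1), and 13 became 8 to 31.

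The share of all cells, -3.51 percentage points, kept its direction in every alternative. It went from -2.26 to -4.77 with 1 library left out and was -4.01 in the B lineage-led cells. When thinned to 1000 and 2000 UMIs it was -5.48 and -9.06, of the cells deep enough to be kept. At 2000 UMIs these were 6365, 6312, 4675 and 4827 of the 10781, 8918, 10573 and 8895 cells. The part of the cells left out in these larger values was not tested. The share of Cd79 cells, -0.78, went from -3.47 to 1.91 with 1 library left out, turning positive without KO replicate 2 or WT replicate 1. It was -8.12 and -11.4 when thinned, -6.51 in the B lineage-led cells, and -9.35 and -12.1 in these when thinned. The mitosis share was -0.86, from -1.99 to 0.26 with 1 library left out, and 2.17 in the B lineage-led cells. The Igkc share was -22.5 in the whole gate, from -32.2 to -12.9, and 4.86 in the B lineage-led cells. Iglc2 became -1.44 and Iglc3 -0.27 without cells that had an Ms4a1 UMI, Iglc3 ranged from -0.13 without WT replicate 2 to 0.60 without WT replicate 1 with 1 library left out, and Igkv9-120 turned to -2.36 in the B lineage-led cells. The B lineage-led alternatives were chosen after seeing the data. Depth limits low genes: TLR9-/- mouse 2 gave 121 such cells and 560884 UMIs.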

Other observations

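Some of the 27 genes that differed in the B lineage-led cells lay near each other, which was noticed after their values had been seen. Pbx4 (69832491 to 69872292), Ocel1 (71371298 to 71379361) and Cyp4f18 (71988482 to 72009626) lie on chromosome 8 of GRCm38, and Ocel1 was higher while Pbx4 and Cyp4f18 were lower in TLR9-/- mice. Pgls, an enzyme of the pentose phosphate pathway between the last pair (71592176 to 71601092), had 3203 and 1528 UMIs against 3305 and 2454 (log2 fold change 0.78, adjusted p = 0.088 in edgeR's quasi-likelihood test, 0.048 in DESeq2 and 6.1e-06 with the library number as a block in edgeR, from 6.1e-06 to 0.51 over the alternatives). In resting B lineage-led cells it rose by 1.09 (adjusted p = 0.0052 in edgeR). Trim5 and Trim12a are neighbours on chromosome 7, and the 4 histone genes lie between 21715763 and 23683948 on chromosome 13. Tlr9 lies on chromosome 9 (106222598 to 106226883), where Jhy (40894849 to 40964118) was the only 1 of the 27. Of the 8 tested genes around Tlr9, 0 passed, a count near the 0.338% of all genes that did. Whether neighbouring genes differed more often was not tested.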
